A study of Mus musculus with 6 samples.

Results

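The miR-34 and miR-449 miRNAs were measured by miRNA sequencing in mouse kidney after chronic intermittent hypoxia (CIH), an animal model of the oxygen swings of obstructive sleep apnea. Members were taken by name, as every mature miRNA of the count table starting with mmu-miR-34a-, mmu-miR-34b-, mmu-miR-34c- or mmu-miR-449, and 5 of the 495 mature miRNAs met this rule. These 5 were mmu-miR-34a-5p of the 34a locus and, of the 34b/c locus, mmu-miR-34b-5p, mmu-miR-34b-3p, mmu-miR-34c-5p and mmu-miR-34c-3p. No miR-449 was among them, so miR-449 and mmu-miR-34a-3p were not analysed here. The CIH group held 3 samples from male balb/c mice whose inspired O2 was lowered to 6% and returned to 21% within 60 seconds each, 30 times an hour for 8 hours a day over 8 weeks. The Control group held 3 samples from mice of the same sex and strain kept in room air, and no genetic change is named for either group and ages are not stated. The samples are kidney tissue and not separated cells, so fewer cells of a type and less miRNA per cell cannot be told apart. Whether the samples of a group are separate mice is not stated, and the p-values therefore reflect sample-to-sample spread that may be technical.

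miR-34 is best known as a miRNA family switched on by the tumour suppressor p53, which binds near the start of both the 34a and the 34b/c transcripts. Its 5p arms bind mRNAs of cell cycle and survival genes such as Cdk6, Met, Bcl2 and Sirt1, and so favour arrest, senescence or apoptosis. miR-34b and miR-34c are cut from 1 shared transcript and, like miR-449, are abundant in epithelia with motile cilia and in testis, whereas miR-34a is expressed in most tissues. The arm written 5p comes from the left side of the precursor hairpin and the arm written 3p from the right side, and usually 1 of them is loaded into the silencing complex while the other is degraded.

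The sequences are shown because the members fall into groups by their seed, the bases 2 to 8 that pair with a target mRNA, and because this grouping cuts across the loci. Mature and hairpin sequences are from RefSeq on GRCm38.p6, where 4 of the 5 members matched a mature sequence, and mmu-miR-34c-5p is named only. The seed is in capitals.
mmu-miR-34a-5p: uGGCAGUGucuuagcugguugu
mmu-miR-34b-5p: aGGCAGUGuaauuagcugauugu
mmu-miR-34b-3p: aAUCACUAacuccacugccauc
mmu-miR-34c-3p: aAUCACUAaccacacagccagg
mmu-miR-449a-5p: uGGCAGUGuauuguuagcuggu
mmu-miR-34a-5p and mmu-miR-34b-5p share the seed GGCAGUG although they lie on different chromosomes. mmu-miR-449a-5p is printed only to show that it has this seed too. The 3p arms of 34b and 34c share another seed, AUCACUA, and 17 of their 22 bases are identical when read from the 5′ end. Between mmu-miR-34a-5p and mmu-miR-34b-5p 11 of 22 bases are identical when read from the 5′ end without a gap, most of them in and beside the seed. The 2 arms are 22 and 23 bases long. Bases past the seed that match only after a shift are not counted, so this number understates their likeness.

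The hairpins are shown because the counts of both arms of a hairpin are set against each other further on, with the letters GGCAGUG in capitals.
Mir34a: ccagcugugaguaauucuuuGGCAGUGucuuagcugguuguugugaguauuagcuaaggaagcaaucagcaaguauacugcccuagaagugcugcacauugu
Mir34b: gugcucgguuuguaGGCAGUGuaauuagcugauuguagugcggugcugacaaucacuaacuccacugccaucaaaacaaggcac
Mir34c: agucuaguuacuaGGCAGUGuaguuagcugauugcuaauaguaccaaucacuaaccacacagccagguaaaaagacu
On GRCm38, Mir34a lies on chromosome 4 from 150068454 to 150068555 on the plus strand, over an exon of Gm37795, a gene model still to be checked experimentally. Mir34b lies on chromosome 9 from 51103562 to 51103645 and Mir34c from 51103034 to 51103110, both on the minus strand. The 2 hairpins are 451 bases apart and sit in an intron of Btg4, which runs on the opposite strand. These positions are the same in GENCODE release M21. Each of the 3 hairpins holds GGCAGUG 1 time, near its left end.

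Library totals ran from 5431797 to 7741499 counts, and the 5 miR-34 miRNAs together took 0.0603% to 0.0774% of the counts of a library. Counts were scaled by TMM, which corrects library totals for a few very abundant miRNAs, and values are given as CPM, counts brought to a common library size. All 5 members had counts in every library and were tested together with all other mature miRNAs. Markers of kidney tubule, mmu-miR-10a-5p, mmu-miR-192-5p, mmu-miR-194-5p, mmu-miR-30a-5p and mmu-miR-204-5p, were all measured and summed to 230500 to 263500 CPM in CIH and 243000 to 318900 CPM in Control, where the highest sum was that of Control replicate 3. Of these, mmu-miR-204-5p had 40.5 to 53.4 CPM in CIH and 59.2 to 60.2 CPM in Control without overlap (log2 fold change -0.32, unadjusted p of 0.053 by edgeR). The groups of the other tubule markers overlapped. Their log2 fold changes were -0.26 for mmu-miR-30a-5p, -0.18 for mmu-miR-10a-5p, -0.05 for mmu-miR-192-5p and 0.10 for mmu-miR-194-5p. The part of these markers in the miR-34 values was not tested. Control replicate 3 had the smallest TMM factor, 0.929, against 0.985 to 1.045 in the other 5 libraries.

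The 5p arms of the 34b/c locus had lower values in CIH kidneys, and mmu-miR-34a-5p, which carries the same seed as mmu-miR-34b-5p, had values that were slightly higher. No member passed an adjusted p of 0.05, and by edgeR's quasi-likelihood test with Benjamini-Hochberg adjustment 0 of the 495 miRNAs did, a background of 0%. The count was also 0 by DESeq2, limma and edgeR's exact test, and at an unadjusted p under 0.05 it was 39 by the quasi-likelihood test, 29 by DESeq2, 35 by limma and 35 by edgeR's exact test. At an unadjusted p under 0.05 by edgeR's quasi-likelihood test, 2 of the 5 members were lower in CIH, against a background of 5.05% of all miRNAs tested, and 0 of the 5 were higher, against 2.83%. No member reached both an unadjusted p of at most 0.05 and a fold change of at least 1.5, which 3.84% of all miRNAs did. The study's list of differentially expressed miRNAs was drawn with thresholds of this kind. With a filter at a mean of at least 10 CPM, which removes mmu-miR-34c-3p, 2 of 302 miRNAs passed both thresholds. The median log2 fold change was -0.003 over all miRNAs tested, and 48.3% of them were positive, against 1 of the 5 members. The members of the 34b/c locus come from the same transcript and are not independent measurements.

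mmu-miR-34b-5p had the smallest p among the members. It had 63.0, 63.6 and 79.4 CPM in CIH kidneys, against 82.8, 98.7 and 104.2 CPM in Control kidneys. Every CIH library lay below every Control library, with CIH replicate 3 and Control replicate 1 closest to each other. The group means were 68.7 ± 9.29 CPM in CIH and 95.2 ± 11.1 CPM in Control (SD, n = 3 each). This is a log2 fold change of -0.47 (standard error 0.15, unadjusted p of 0.010 and adjusted p of 0.58 by edgeR), or a CIH to Control ratio of 0.721 with a 95% interval from 0.572 to 0.909. The miRNA stood at position 8 of the 495 when ordered by p. With each library left out in turn the log2 fold change ran from -0.59, without Control replicate 1, to -0.41, without Control replicate 3. Its counts lay between 466 and 702 a library, where counting error is 4.24% and the spread between replicates was 13.5% in CIH and 11.7% in Control.

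mmu-miR-34c-5p, the most abundant member, had 256.3, 268.5 and 285.5 CPM in CIH kidneys, against 329.4, 295.8 and 463.1 CPM in Control kidneys. The groups again did not overlap, but Control replicate 3 stood well above the other Control libraries. This library also had the highest sum of tubule markers, but its mmu-miR-194-5p, 1 of these markers, was the lowest of all libraries (8032 CPM). It was highest too in the smooth muscle marker mmu-miR-143-3p (51090 CPM) and the endothelial marker mmu-miR-126a-3p (58040 CPM). The means of mmu-miR-34c-5p were 270.1 ± 14.7 CPM in CIH and 362.8 ± 88.5 CPM in Control (SD, n = 3 each). The log2 fold change was -0.43 (standard error 0.16, unadjusted p of 0.026 and adjusted p of 0.58 by edgeR), a ratio of 0.744 with a 95% interval from 0.579 to 0.957. Without Control replicate 3 the log2 fold change was -0.22 with an unadjusted p of 0.081 from edgeR. The unadjusted p was also above 0.05 without CIH replicate 1, at 0.067, and without CIH replicate 2, at 0.065, with log2 fold changes of -0.39 and -0.42. Groups that did not overlap, with CIH lower, were found for 2 of the 5 members, against a background of 7.27% of all miRNAs, and with CIH higher for 0 of the 5, against 5.25%.

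**Figure D1:**
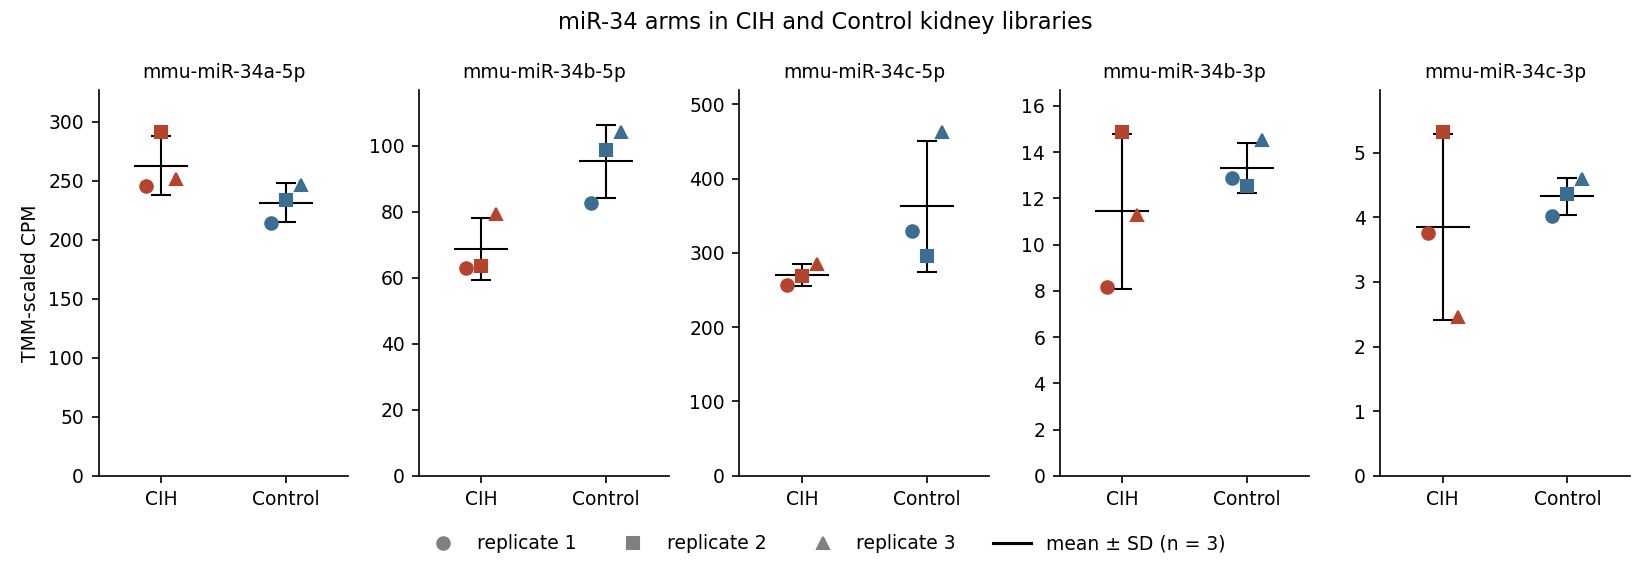
TMM-scaled CPM of the 5 miR-34 arms (vertical axes from 0, with a scale of their own) in the 3 CIH and the 3 Control kidney libraries, with 1 symbol per replicate and black bars for the mean ± SD. All CIH points of mmu-miR-34b-5p (63.0 to 79.4 CPM) and mmu-miR-34c-5p (256.3 to 285.5 CPM) lie below the Control points (82.8 to 104.2 and 295.8 to 463.1 CPM), and the groups of the other 3 arms overlap.

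mmu-miR-34a-5p, the member with the best known link to p53, had 245.3, 291.3 and 251.2 CPM in CIH kidneys, against 214.3, 233.2 and 246.5 CPM in Control kidneys. Its groups touched, since CIH replicate 1 lay just under Control replicate 3. The means were 262.6 ± 25.0 CPM in CIH and 231.3 ± 16.2 CPM in Control (SD, n = 3 each). The log2 fold change was 0.18 (standard error 0.12, unadjusted p of 0.16 and adjusted p of 0.79 by edgeR). The 95% interval of the CIH to Control ratio ran from 0.944 to 1.37, which includes a ratio of 1. The log2 fold change was 0.10 without CIH replicate 2 and 0.10 without Control replicate 1, and 0.23 at most, without CIH replicate 1. The overlap depended on the scaling: with library totals alone CIH had 256.5 to 286.9 CPM and Control 213.0 to 236.6 CPM, and with DESeq2 size factors CIH had 245.8 to 292.1 CPM and Control 213.2 to 244.7 CPM, so that the groups were apart under both.

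The same change of scaling bore on mmu-miR-34b-5p. With library totals alone it had 62.64 to 82.29 CPM in CIH and 82.28 to 100.2 CPM in Control, and the groups touched. mmu-miR-34c-5p stayed apart under all 3 scalings, at 264.4 to 296.0 CPM in CIH and 300.1 to 430.3 CPM in Control with library totals alone. Over all miRNAs the median log2 fold change was 0.061 with library totals alone and 0.010 with DESeq2 size factors.

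**Figure D2:**
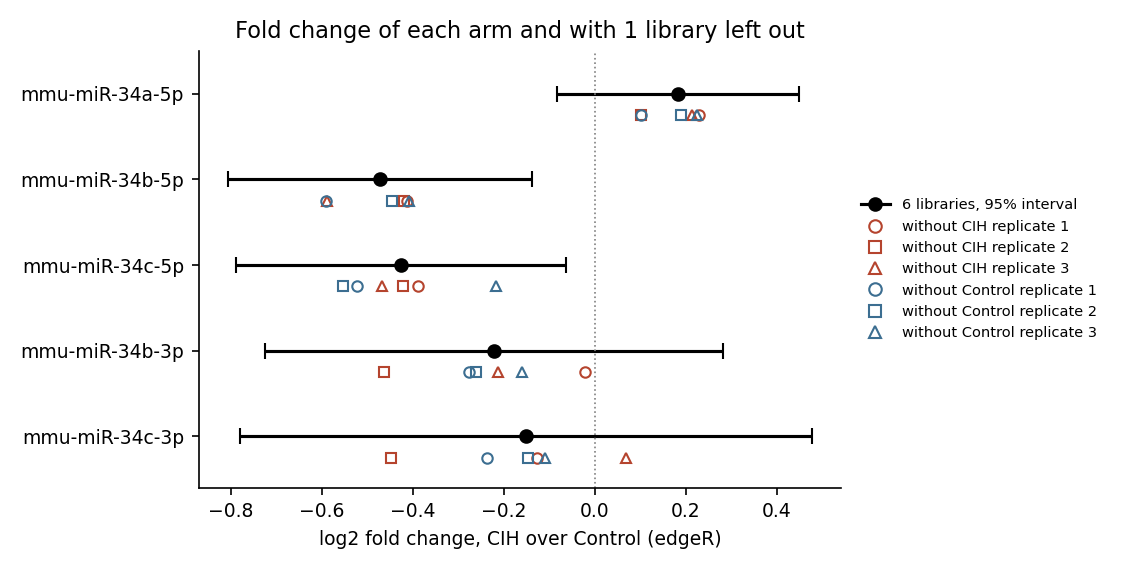
Log2 fold change of CIH over Control for each miR-34 arm from edgeR (black point, 95% interval as bar, 3 CIH and 3 Control libraries), with the value after leaving out 1 library as an open symbol below it. The intervals of mmu-miR-34b-5p and mmu-miR-34c-5p lie below 0 and those of the other 3 arms include 0, and mmu-miR-34c-5p moves to -0.22 without Control replicate 3.

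The ratio of 2 miRNAs within a library does not depend on the scaling. mmu-miR-34a-5p had 0.769, 0.877 and 0.689 counts for each count of the 34b and 34c 5p arms together in CIH kidneys, against 0.520, 0.591 and 0.435 in Control kidneys. Every CIH library lay above every Control library, and the means were 0.778 ± 0.0947 in CIH and 0.515 ± 0.0784 in Control (SD, n = 3 each), a ratio of 1.51. On the log2 scale the ratio of the means was 0.60, and from 0.49, without Control replicate 3, to 0.71, without Control replicate 2, with 1 library left out. Expressed as a share, mmu-miR-34a-5p made up 43.5%, 46.7% and 40.8% of the 5p counts of the family in CIH and 34.2%, 37.2% and 30.3% in Control. This ratio was chosen after the values of its parts were known and was not tested.

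Taken apart, the ratio to each of the 2 partners was higher in every CIH library than in every Control library. These ratios reuse the same counts, were chosen with them known and were not tested. mmu-miR-34a-5p over mmu-miR-34b-5p was 3.89, 4.58 and 3.17 in CIH, against 2.59, 2.36 and 2.37 in Control. mmu-miR-34a-5p over mmu-miR-34c-5p was 0.957, 1.085 and 0.880 in CIH, against 0.651, 0.788 and 0.532 in Control. CIH replicate 2 was thus the only library with more counts of mmu-miR-34a-5p than of mmu-miR-34c-5p. Within the 34b/c locus, in contrast, mmu-miR-34c-5p over mmu-miR-34b-5p was 4.07, 4.22 and 3.60 in CIH and 3.98, 3.00 and 4.45 in Control, and the groups overlapped.

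Summed over its 4 arms, the 34b/c locus had 331.2, 352.3 and 378.6 CPM in CIH, against 429.0, 411.4 and 586.4 CPM in Control, and the ratio of means was 0.744. The 34a locus is mmu-miR-34a-5p alone, with a ratio of means of 1.14. The 5p arms of both loci together had 564.6 to 623.4 CPM in CIH and 626.4 to 813.7 CPM in Control, a ratio of means of 0.872. These groups lay next to each other without overlap, and they overlapped with library totals alone (590.2 to 638.7 CPM in CIH, 622.7 to 756.0 CPM in Control) and with DESeq2 size factors (565.7 to 625.2 and 623.3 to 808.0 CPM). Control replicate 3 weighed on both sums: without it the log2 ratio of means was -0.25 in place of -0.43 for the 34b/c locus and -0.07 in place of -0.20 for the 5p arms of both loci. Sums over members were not tested.

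The 3p arms were scarce and had wide intervals. mmu-miR-34b-3p had 8.16, 14.9 and 11.3 CPM in CIH, against 12.9, 12.5 and 14.5 CPM in Control, and CIH held both the lowest and the highest library. Its log2 fold change was -0.22 (standard error 0.23, adjusted p = 0.86 from edgeR), with -0.02 once CIH replicate 1 was left out and -0.46 once CIH replicate 2 was. mmu-miR-34c-3p had 30, 39 and 15 counts in CIH, or 3.77, 5.32 and 2.45 CPM, against 31, 24 and 31 counts in Control, or 4.03, 4.36 and 4.60 CPM. Its log2 fold change was -0.15 (standard error 0.28, adjusted p = 0.92 from edgeR), with a 95% interval of the ratio from 0.582 to 1.39. It was 0.07 without CIH replicate 3 and -0.45 without CIH replicate 2. At 170 counts over the 6 libraries, counting error alone is 18.8% a library, and the spread between replicates was 37.4% in CIH and 6.63% in Control. The interval of its ratio includes 1 as well as the ratios of the 34b and 34c 5p arms, 0.721 and 0.744.

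The choice of arm was read from the share of each hairpin's counts in its 3p arm. For mir-34b this share was 11.5% (95% Wilson interval 9.10% to 14.4%), 19.0% (16.0% to 22.4%) and 12.4% (9.94% to 15.4%) in the CIH libraries, against 13.5% (11.2% to 16.1%), 11.3% (8.99% to 14%) and 12.3% (10.2% to 14.7%) in the Control libraries. CIH replicate 2 stood alone, with an interval above the value of each of the other 5 libraries. Without it the 5p share of mir-34b differed by 0.371 percentage points, CIH minus Control, in place of -1.97. For mir-34c the 3p share was 1.45%, 1.94% and 0.851% in CIH, against 1.21%, 1.45% and 0.984% in Control, and the groups overlapped. The 5p share of mir-34b averaged 85.7% ± 4.08 in CIH and 87.7% ± 1.10 in Control (exact permutation test, two-sided, p = 0.60, n = 3 each). The 5p share of mir-34c averaged 98.6% ± 0.547 in CIH and 98.8% ± 0.234 in Control (exact permutation test, two-sided, p = 0.70, n = 3 each). With 3 samples against 3 this test cannot go below 0.1, and adjusted over the 2 hairpins both p-values were 0.70. Reads were not counted by molecular identifiers, so the intervals cover counting error only.

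**Figure D3:**
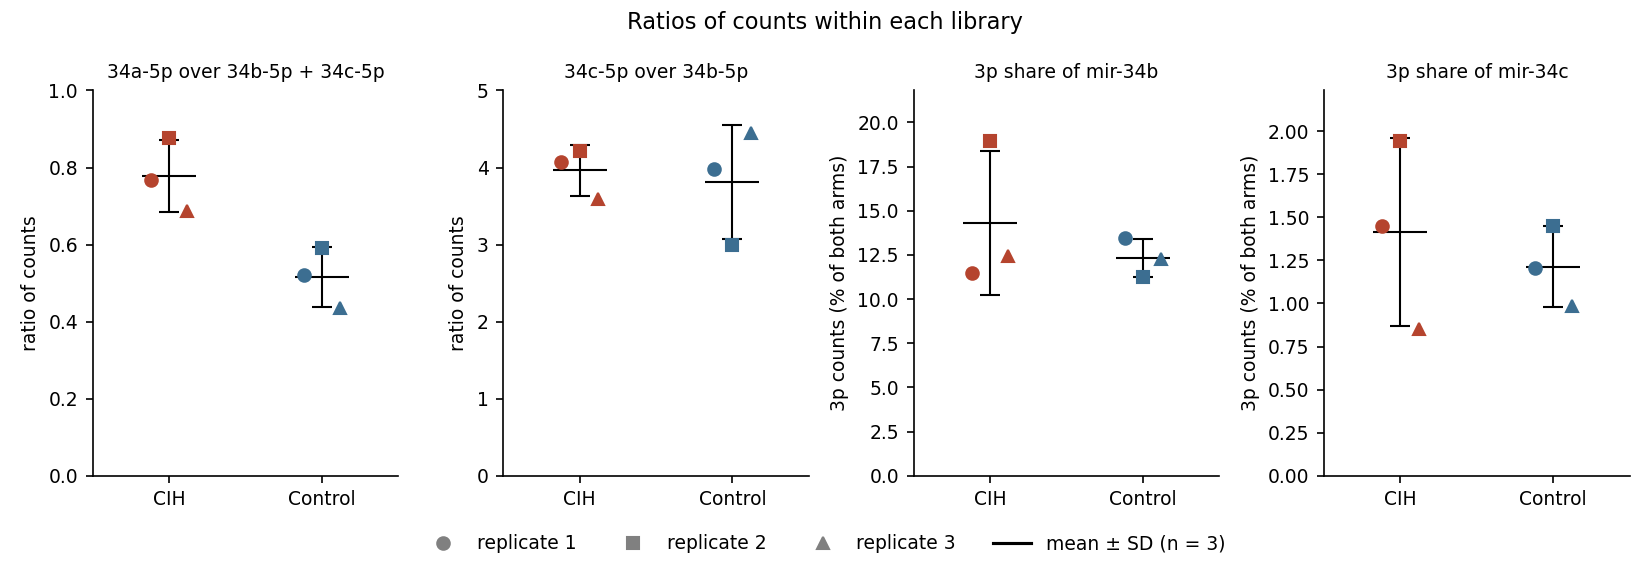
Ratios of counts within each kidney library (vertical axes from 0) for mmu-miR-34a-5p over the summed 34b and 34c 5p arms, for mmu-miR-34c-5p over mmu-miR-34b-5p, and the 3p share of the mir-34b and mir-34c hairpins in percent, with 1 symbol per replicate and black bars for the mean ± SD of 3 CIH and 3 Control libraries. The first ratio is 0.689 to 0.877 in CIH and 0.435 to 0.591 in Control, and in the other panels the groups overlap.

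The order of the members by level was the same in both groups: mmu-miR-34c-5p, mmu-miR-34a-5p, mmu-miR-34b-5p, mmu-miR-34b-3p and mmu-miR-34c-3p. Small RNA reads count molecules of nearly the same length, so CPM needs no length correction, but adapter ligation favours some ends over others and the order holds for reads rather than molecules. In CIH the top 2 did not differ beyond their spread, at 256.3 to 285.5 CPM for mmu-miR-34c-5p and 245.3 to 291.3 CPM for mmu-miR-34a-5p, with a ratio of means of 1.03. In Control they did not overlap, at 295.8 to 463.1 and 214.3 to 246.5 CPM, with a ratio of 1.57. All other neighbours in the order lay apart in both groups, by a ratio of means between 2.43 and 7.15. Among all 495 miRNAs, mmu-miR-34c-5p stood at position 115 by mean CPM, mmu-miR-34a-5p at 125, mmu-miR-34b-5p at 182, mmu-miR-34b-3p at 287 and mmu-miR-34c-3p at 367. The more abundant arm was therefore the 5p arm for both hairpins, whereas 34c exceeded 34b in the 5p arm and 34b exceeded 34c in the 3p arm.

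**Figure D4:**
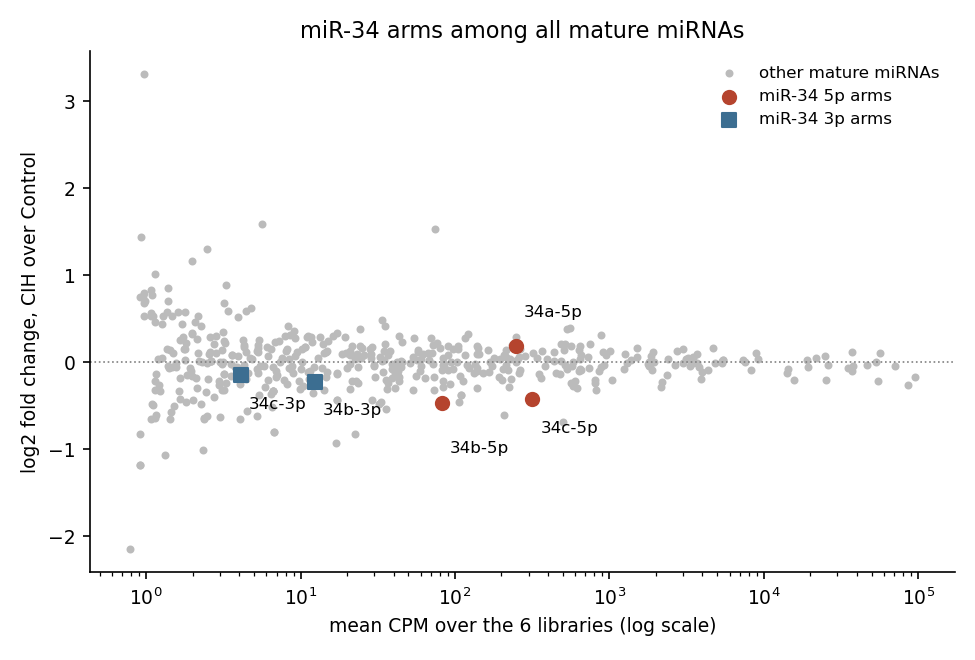
Log2 fold change of CIH over Control against mean CPM over the 6 libraries (log axis) for the 495 mature miRNAs, with the miR-34 5p arms as large circles and the 3p arms as squares. mmu-miR-34b-5p (-0.47) and mmu-miR-34c-5p (-0.43) stand at percentile 6.46 and percentile 8.08 of all log2 fold changes, and mmu-miR-34a-5p (0.18) lies above 0.

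Other miRNAs linked to p53 were set beside the members. The list held 20 miRNAs that p53 switches on, processes or represses, or that act on p53 itself, and 19 were measured. By edgeR 1 of the 19 was higher and 1 was lower in CIH at an unadjusted p under 0.05, against 2.83% and 5.05% of all miRNAs, and 0 passed an adjusted p of 0.05. The log2 fold change was positive for 6 and negative for 13 of them. Over all miRNAs 48.3% were positive. The list's median was -0.031 against -0.003 over all miRNAs, and with library totals alone, which move all miRNAs alike, 0.035 against 0.061. Without Control replicate 2 it was 0.033 against 0.003, on the other side of the median of all miRNAs. Because the list mixes miRNAs that p53 switches on with others that it represses, its median and signs do not measure p53 activity, which was not tested. mmu-miR-215-5p, which p53 induces in human cells, averaged 110.5 CPM in CIH kidneys and 38.1 CPM in Control kidneys. Its log2 fold change was 1.53 (standard error 0.50, unadjusted p of 0.012 and adjusted p of 0.58 by edgeR). The groups of mmu-miR-215-5p overlapped, so not every CIH library lay above every Control library. mmu-miR-29b-3p, which raises p53 activity in human cells, averaged 744.3 CPM in CIH kidneys and 881.4 CPM in Control kidneys, a log2 fold change of -0.24 (standard error 0.10, unadjusted p of 0.032 and adjusted p of 0.58 by edgeR). Next by p were mmu-miR-141-3p of the epithelial miR-200 family, at -0.69 (standard error 0.34), and mmu-miR-504-5p, which represses p53 in human cells, at 0.47 (standard error 0.33).

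The members did not share one pattern over the 6 libraries. The 5p arms of the 34b/c transcript went together with a Pearson r of 0.78 (log2(CPM + 0.5), 6 libraries), and with r = 0.48 once each group's mean was removed. mmu-miR-34a-5p had r = -0.50 with mmu-miR-34b-5p and -0.28 with mmu-miR-34c-5p, which were 0.20 and 0.39 once the group means were removed. The 5p and the 3p arm of the same hairpin had r = 0.45 for 34b and 0.22 for 34c, which were 0.15 and -0.02 once the group means were removed. The highest values with group means removed were between loci, at 0.81 for mmu-miR-34a-5p with mmu-miR-34b-3p and 0.71 with mmu-miR-34c-3p, pairs whose r over all libraries was 0.22 and 0.26. The 3 pairs left had r from 0.03 to 0.54, and from -0.52 to 0.43 with group means removed. All points share the same 6 libraries and their scaling, and the r values are descriptions.

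Among the 298 other miRNAs with a mean of at least 10 CPM, the profile of mmu-miR-34b-5p was most like those of mmu-miR-30b-5p (r = 0.98), mmu-miR-19b-3p (0.95) and mmu-miR-15a-5p (0.94). That of mmu-miR-34c-5p was most like mmu-miR-139-5p (0.98), mmu-miR-24-2-5p (0.98) and mmu-miR-1843b-3p (0.96). That of mmu-miR-34a-5p was most like mmu-miR-582-3p (0.93), mmu-miR-324-5p (0.92) and mmu-miR-129-5p (0.92). All 6 miRNAs that were most like the 34b and 34c 5p arms had a negative log2 fold change, from -0.46 for mmu-miR-19b-3p to -0.16 for mmu-miR-15a-5p, a direction that follows from choosing them by likeness to arms that were lower in every CIH library. The 3p arms were most like mmu-miR-214-3p, mmu-miR-23b-3p and mmu-miR-182-5p (0.92 to 0.90, for 34b) and mmu-miR-598-3p, mmu-miR-193a-3p and mmu-miR-187-3p (0.92 to 0.83, for 34c). These r values are the highest of 298 for each member and are given as descriptions.

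Markers of other tissues were set beside these values. None of the 11 listed miRNAs of testis and germ cells, where miR-34b and miR-34c are abundant, was analysed here. Of 6 listed neuronal miRNAs 4 were measured, mmu-miR-124-3p and mmu-miR-137-3p were not analysed here, and the 4 summed to 777.1 to 1154 CPM in CIH and 1120 to 1219 CPM in Control, most of it mmu-miR-9-5p, of which CIH replicate 1 had 503 CPM where the other 5 libraries had 768.4 to 994.3. The 2 miRNAs of urothelium and stratified epithelium, led by mmu-miR-203-3p, summed to 1840 to 2050 CPM in CIH and 1796 to 1937 CPM in Control, and CIH replicate 1 stood apart in mmu-miR-205-5p, with 0.502 CPM where the other 5 libraries had 18.6 to 38.9. The sums for smooth muscle, endothelium, erythroid cells, leukocytes, liver and striated muscle, led by mmu-miR-143-3p, mmu-miR-126a-3p, mmu-miR-451a, mmu-miR-142a-5p, mmu-miR-122-5p and mmu-miR-1a-3p, overlapped between the groups. Within the erythroid list mmu-miR-486a-5p had 578.3, 586.3 and 649.9 CPM in CIH, against 535.1, 476.6 and 386.4 CPM in Control, without overlap (log2 fold change 0.38, unadjusted p of 0.019 by edgeR). The groups of the other erythroid markers, mmu-miR-451a and mmu-miR-144-3p, overlapped, with log2 fold changes of 0.01 and -0.09. For pancreas 2 of 3 listed miRNAs were measured, led by mmu-miR-375-3p. Their sums were 74.9 to 98.3 CPM in CIH and 68.9 to 72.9 CPM in Control, without overlap. mmu-miR-375-3p alone had 72.36 to 98.01 CPM in CIH and 68.55 to 72.76 CPM in Control, and the groups overlapped. The acinar marker mmu-miR-217-5p was at 4.57 CPM in CIH replicate 3, at 0.50 and 0.27 CPM in the other CIH libraries and at 0 to 0.30 CPM in Control. Only with this marker did the sum of CIH replicate 3 lie above every Control sum. The part of these tissues in the miR-34 values was not tested.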

How the data were processed

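Small RNA of kidney tissue was sequenced in 3 CIH and 3 Control samples, grouped by the labels' titles. The authors trimmed adapters with cutadapt, aligned with Bowtie and deposited raw read counts per mature miRNA and precursor, in 584 entries. No source used here gives tool versions, miRBase release or build. Of the 44 miRNAs with several entries the one with the highest total was kept (each member has 1 entry). A filter asking for counts above 0 in 3 or more libraries removed none of the 495.

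CIH was compared with Control across all miRNAs by edgeR 4.0.16 (quasi-likelihood test, TMM, Benjamini-Hochberg) in R 4.3.3, with a biological coefficient of variation of 15.7%. Arm shares used scipy 1.17.1. Depth limits precision most for the 3p arms. Alternatives were other scalings, filters at a mean of 1 and 10 CPM, DESeq2 1.42.0, limma 3.58.1, all entries, a replicate block and each library left out. The members, lists and ratios were chosen with earlier results of these data known. All members were named, with the 3 most similar miRNAs of each member. Of the p53 list the 4 with the smallest p were named, and of each marker list the most abundant. The other tubule and erythroid markers, mmu-miR-205-5p and mmu-miR-217-5p were added after their values were seen. The scripts were tested on simulated data. No replicate pairs had counts that agreed within sampling noise.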

Additional observations from a re-analysis of the deposited data

How the results depend on the processing

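No member passed an adjusted p of 0.05 under any of the 17 alternatives tried (16 for mmu-miR-34c-3p, which a filter at a mean of 10 CPM removes), and the counts of miRNAs at an adjusted p under 0.05 were 0 throughout. The sign of the log2 fold change held for mmu-miR-34a-5p, mmu-miR-34b-5p, mmu-miR-34c-5p and mmu-miR-34b-3p in all 17, and for mmu-miR-34c-3p in 15 of 16, whose extremes were -0.448 (CIH replicate 2 left out) and 0.068 (CIH replicate 3 left out). The unadjusted p stayed under 0.05 in 17 of 17 for mmu-miR-34b-5p and in 14 of 17 for mmu-miR-34c-5p, with adjusted p from 0.34 to 0.97 for both by edgeR, DESeq2 and limma.

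Of all 495 miRNAs, 19 passed the study thresholds and 39 had an unadjusted p under 0.05. The 19 became 10 with DESeq2 and 10 with limma on log2(CPM + 1), an alternative added after seeing the data. They became 2 at a mean of at least 10 CPM and 29 with every precursor entry kept, when 584 entries were tested. The 39 became 24 at a mean of at least 10 CPM, when 302 miRNAs were tested. With 1 library left out the 19 ran from 11, without CIH replicate 2, to 20, and the 39 from 21, without CIH replicate 2, to 67, without Control replicate 2, with 22 without CIH replicate 1. The causes of these changes were not tested. No pairing of samples by replicate number was visible (correlations of deviations of -0.042, -0.033 and 0.034), but 3 samples a group cannot show that there was none. With the replicate block 21 passed the thresholds and 32 had an unadjusted p under 0.05 by edgeR, with no call of a member changed.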
